A study of Homo sapiens with 2 samples.

Results

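Calmodulin is the main calcium sensor of animal cells, and the genes described here encode it and the enzymes it switches on. The set was chosen by gene name with the RPKM values of both libraries already known, and its 9 genes are CALM2, CALM3, CAMK1, CAMK2D, CAMK2G, CAMKK2, PPP3CA, PPP3CB and PPP3R1. All 9 were found, each on 1 line, among 12936 named genes.

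The series compared cells of A549, an established line from a human lung adenocarcinoma, labelled wild type, with A549 cells labelled as MYOCD knockdown and titled MYOCD-/-, with 1 RNA-seq library each. MYOCD encodes myocardin, a coactivator of serum response factor. Both samples are labelled as treated with doxycycline (written Dox) for 72 h, while the series' design text describes the wild type as without treatment, so an effect of doxycycline and one of the knockdown cannot be told apart if only 1 culture received it. The sources used here do not say how the knockdown was made or whether the cells are a clone. MYOCD itself was listed at 0.881 RPKM (wild type) and 0.400 RPKM (knockdown), both near the lowest values in the table.

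RPKM divides the reads of a locus by the length of its transcript and by the library's mapped reads, so levels can be compared between genes. Between libraries the comparison depends on their scale. Summed over all loci, the RPKM was 1021887 (wild type) and 1173002 (knockdown). Each group has 1 library, so the values carry no replicate error and there is no test. Differences are given as log2((knockdown RPKM + 1) / (wild type RPKM + 1)), called the log2 change, and a gene is called only when this reaches 2-fold in either direction. In pairs of values the wild type library comes first. The 6 epithelial markers looked for summed to 4749 and 4692 RPKM, nearly all of it from the keratin genes KRT8, KRT18 and KRT7. Of the others, CDH1 had 23.8 and 22.5 RPKM, KRT19 7.70 and 7.69 RPKM, and EPCAM 2.24 and 2.15 RPKM, below the fibroblast marker COL1A1. Of 6 fibroblast markers 1 was listed, COL1A1, with 2.76 and 2.41 RPKM, of 6 leukocyte markers 2 were listed, summing to 3.71 and 4.10 RPKM, and of 4 endothelial markers 0 were listed.

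Calmodulin binds calcium through EF hands, changes shape, and then wraps around short helices in its target enzymes. Among these are the CaM kinases, arranged in part as a cascade: a CaM kinase kinase phosphorylates CaMKI and also AMP-activated kinase, while CaMKII forms large holoenzymes that phosphorylate themselves. The phosphatase calcineurin has a catalytic A subunit, which binds calmodulin, and a regulatory B subunit, which resembles calmodulin. Calcineurin dephosphorylates NFAT factors and so lets them enter the nucleus. In epithelial cells the same sensor also acts on myosin light chain kinase, the plasma membrane calcium pumps and cytoskeletal scaffolds.

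CALM2 and CALM3 are shown first by sequence, because they encode the same protein in different bases. In GENCODE release 29 (GRCh38), CALM2 lies on the minus strand at chr2:47160082-47176601 and CALM3 on the plus strand at chr19:46601074-46610793. Their full-length coding sequences have 450 bases each, and their translations were identical over 149 codons. The bases were not: 81.8% were identical, and the longest stretch without a difference was 17 bases. The first 90 coding bases of each follow, 5′ to 3′, with capitals at the 15 positions where they differ.
CALM2: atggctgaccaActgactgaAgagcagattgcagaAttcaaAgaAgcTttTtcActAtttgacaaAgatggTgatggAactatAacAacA
CALM3: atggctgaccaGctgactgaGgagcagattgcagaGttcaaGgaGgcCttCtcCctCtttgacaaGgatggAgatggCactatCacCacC

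All 15 capitals fall on the last base of a codon, and over the whole coding sequence 82 positions differed. GENCODE also lists 4 processed pseudogenes named after CALM2 and 0 named after CALM3. The sources used here do not say how reads shared with pseudogenes were counted.

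CALM2 was much lower in the knockdown library, while CALM3 was higher. CALM2 had 825 RPKM without and 363 RPKM with the knockdown, 43.9% of the wild type level and a log2 change of -1.18. CALM3 had 246 and 347 RPKM, 141% of the wild type level and a log2 change of 0.49. The ratio of CALM2 to CALM3 went from 3.35 to 1.05. Such a ratio within a library does not depend on how the libraries are scaled against each other.

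**Figure D1:**
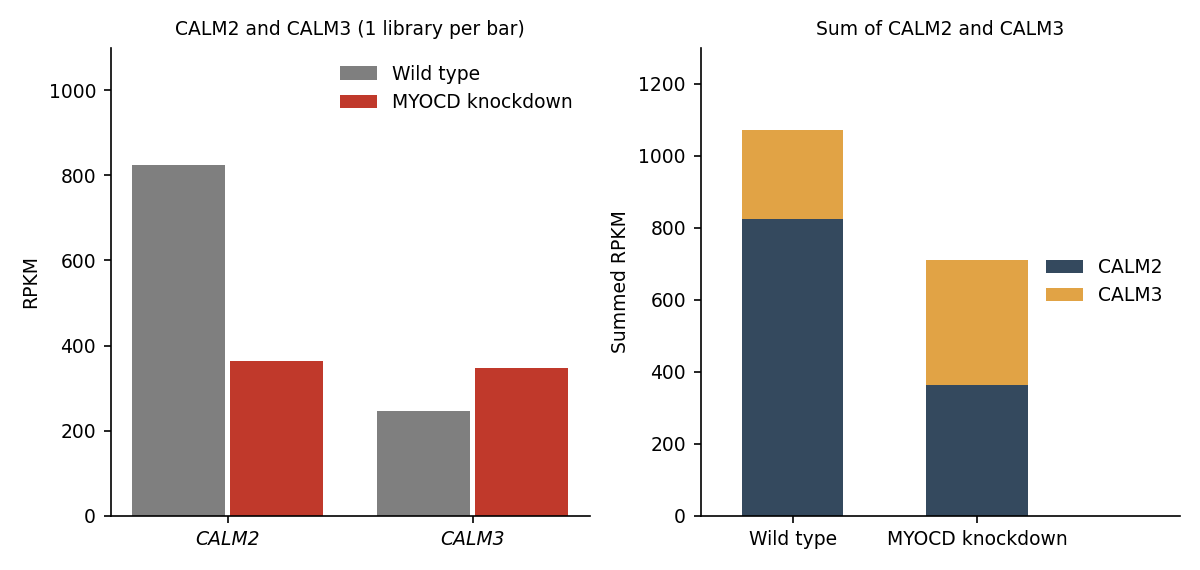
Left, RPKM of CALM2 and CALM3 (vertical axis, linear) in the wild type (grey) and knockdown (red) libraries, with 1 library per bar and no error. Right, the same values stacked: the sums were 1072 and 709 RPKM, with CALM2 lower and CALM3 higher in the second bar.

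Because CALM2 and CALM3 encode the same protein, their RPKM can be summed as messages for it. The sum covers this pair only and is not a total of calmodulin messages. The sum of this pair was 1072 and 709 RPKM, the latter 66.2% of the former, a log2 change of -0.59. CALM2 was lower by 463 RPKM and CALM3 higher by 100.3 RPKM, which is 21.7% of the CALM2 difference. This percentage holds on the deposited scale only. With equal summed RPKM over all loci the log2 change was -1.38 for CALM2 and 0.29 for CALM3, so the percentage would be smaller. CALM2 made up 77.0% of the pair's sum without the knockdown and 51.1% with it, and CALM3 made up the rest. Of the pair, the wild type library therefore held mostly CALM2 messages, while in the knockdown library CALM2 and CALM3 were at almost equal levels. The sum is of messages, and no protein was measured.

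Of the 9 genes, CALM2 was the 1 that reached 2-fold. Over all named genes averaging 1 RPKM or more, 1.37% reached 2-fold in either direction (79 up and 88 down of 12158). In protein-coding loci of 1 gene that hold no microRNA, snoRNA or scaRNA gene on the same strand (called short RNA genes here), 0.376% were at least 2-fold lower (38 of 10111), and 11 were at least 2-fold higher. Where such loci also averaged 100 RPKM or more, 0.165% were 2-fold lower, and that 1 gene of 607 was CALM2. The set was proposed with these values known, so the shares are given for scale and nothing is read from them.

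Among those 607 abundant genes CALM2 had the lowest log2 change and CALM3 the third highest. The central 95% of the 607 ran from -0.37 to 0.35, and CALM2 and CALM3 lay outside it on opposite sides. Among all 10111 genes, 16 had a log2 change at least as low as that of CALM2. A log2 change at least as high as that of CALM3 was found for 202. The set was proposed with these values known, so these positions are given for scale and nothing is read from them. CALM2 ranked 63rd by RPKM among the 10111 genes of the wild type library and 136th with the knockdown. CALM3 ranked 202nd and 144th, close to CALM2 in the knockdown library. The 4 genes nearest to CALM2 in wild type RPKM are also given for scale only. RPL29 had 835 and 810 RPKM, CFL1 831 and 797 RPKM, LDHA 823 and 804 RPKM, and RPL36 816 and 813 RPKM. CALM2 had the lowest log2 change of the 607, so none of these 4 could be as low. Among protein-coding loci averaging 100 RPKM or more, the 3 with the log2 change closest to that of CALM2 were GDF15 (-0.91), H1FX (-0.83) and TMSB4X (-0.80). Likeness here is the difference of log2 changes, 0.27, 0.36 and 0.38, and it rests on the same 2 libraries. The locus of GDF15, a stress cytokine, was not among the 607, while those of H1FX, a linker histone gene, and TMSB4X, which encodes an actin-binding peptide, were.

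**Figure D2:**
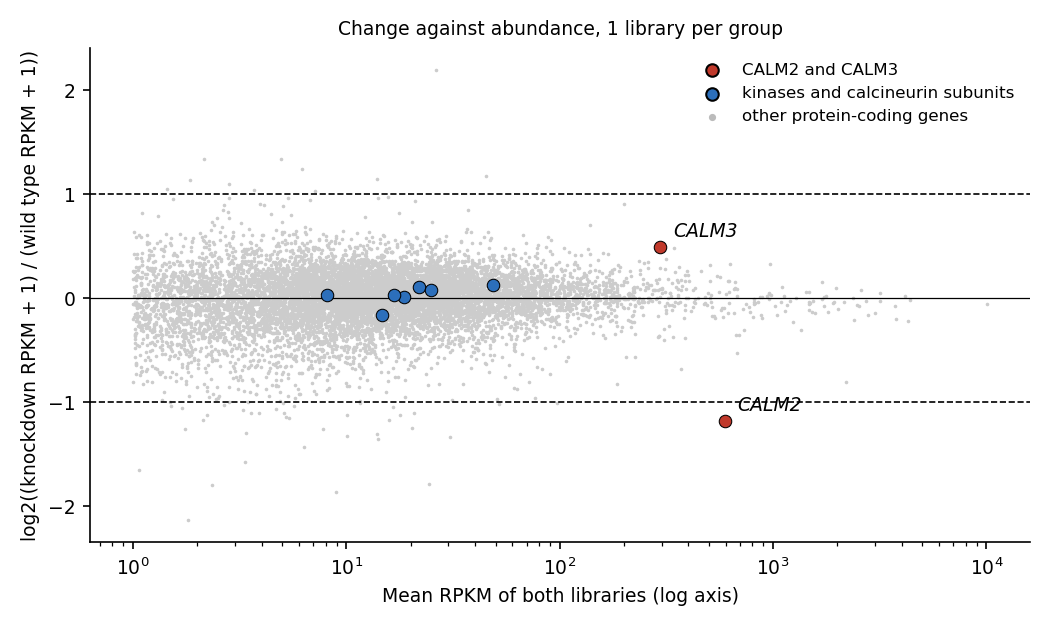
Each grey point is 1 protein-coding gene holding no short RNA gene (10111 genes), by mean RPKM of both libraries (horizontal, log axis) and log2 change (vertical), with dashed lines at 2-fold. CALM2 lies below the lower line at -1.18, CALM3 (also red) lies at 0.49, and the kinases and calcineurin subunits (blue, with PPP3CA, which holds microRNA genes) lie between -0.16 and 0.13.

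The 7 enzyme genes of the set were at similar levels in both libraries. Their levels ranged from 8.0 to 50.6 RPKM, and the knockdown level ran from 89.1% to 109% of the wild type level. Log2 changes ran from -0.16 to 0.13, with 6 above 0 and 1 below 0, and 0 of 7 reached 2-fold. The central 95% of the 10111 protein-coding genes, PPP3CA not among them, ran from -0.61 to 0.47, and these differences lie inside it. That range is a spread between genes, not between replicates. It is given for scale and nothing is read from it, since the set was proposed with these values known. Rescaling both libraries to equal summed RPKM over all loci puts all 6 of the positive values below 0, so no direction is given for these 6. CAMK2G was below 0 on the deposited scale and with each alternative scale and pseudocount, between -0.34 and -0.12, with no replicate to set this against. Of these settings, only a change of scale could alter its sign. On the deposited scale, the summed RPKM of CALM2 and CALM3 was 7.15 times that of the 7 enzyme genes without the knockdown and 4.53 times with it.

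CAMKK2, the kinase kinase that activates CaMKI, CaMKIV and AMP-activated kinase, had 16.5 and 16.9 RPKM, with a log2 change of 0.03. CAMK1, which encodes CaMKI and is a substrate of that kinase, had 8.0 and 8.22 RPKM and was the lowest of the 9 in both libraries. CAMK2D, which encodes the delta form of CaMKII, had 18.5 and 18.7 RPKM. CAMK2G, for the gamma form, had 15.5 and 13.8 RPKM and a log2 change of -0.16, the lowest of the 7 enzyme genes. The ratio of CAMK2D to CAMK2G was 1.20 and 1.36. The pair summed to 34.0 and 32.5 RPKM, so the knockdown sum was 95.6% of the wild type sum.

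Of the 7 enzyme genes of the set, those of calcineurin were the highest in both libraries. PPP3R1, which encodes the regulatory B subunit, had 46.2 and 50.6 RPKM and was the highest of the 7 in both libraries. The catalytic subunit genes PPP3CB and PPP3CA had 24.1 and 25.6 RPKM and 21.1 and 22.8 RPKM. Their ratio, PPP3CB to PPP3CA, was 1.15 and 1.13. PPP3CC, a further catalytic gene outside the set, had 8.32 and 5.49 RPKM, a log2 change of -0.52. The 3 catalytic genes together had 53.5 and 53.9 RPKM, and their ratio to PPP3R1 was 1.16 and 1.06.

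**Figure D3:**
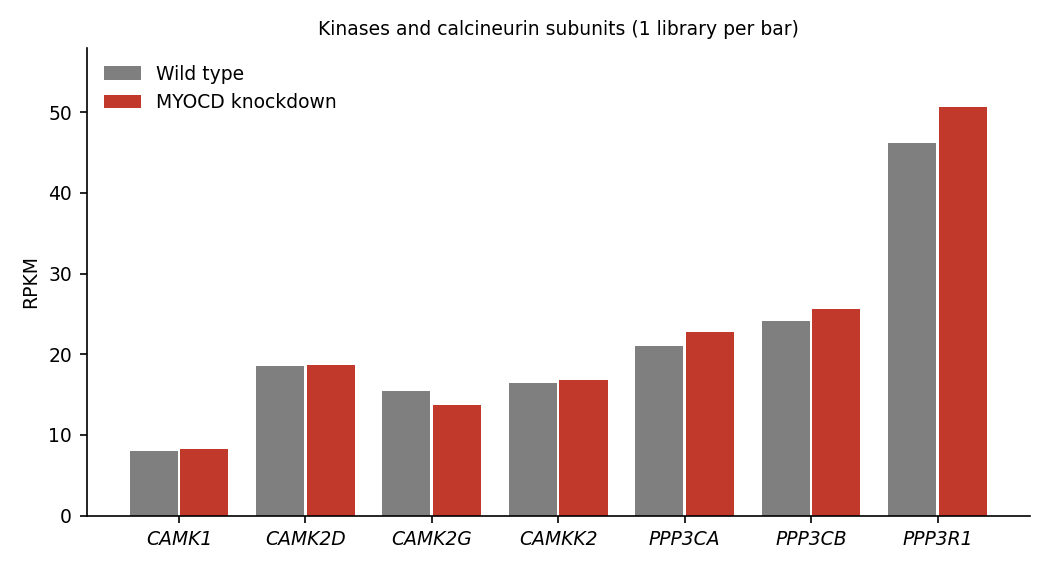
RPKM (vertical axis, linear) of the 7 enzyme genes in the wild type (grey) and knockdown (red) libraries, with 1 library per bar and no error. In both libraries CAMK1 is lowest and PPP3R1 highest, and the bars of each pair are of nearly the same height.

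By level, the order of the 9 genes in the wild type library was CALM2, CALM3, PPP3R1, PPP3CB, PPP3CA, CAMK2D, CAMKK2, CAMK2G and CAMK1, and the knockdown library had the same order. Without replicates it cannot be said which neighbours in this order differ beyond their spread. In the wild type library CAMKK2 and CAMK2G lay close together, at 16.5 and 15.5 RPKM, as did CALM2 and CALM3 in the knockdown library at 363 and 347 RPKM.

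Beyond the set, 111 other genes of the calmodulin and calcium pathway were listed by function. Of these, 74 had a line of their own and averaged 1 RPKM or more, and 0 of the 74 reached 2-fold in either direction, beside 1.37% of all genes. The share was smaller among the 10111 protein-coding genes that hold no short RNA gene, with 38 lower and 11 higher. Nothing is therefore read from 0 of 74. With a pseudocount of 0.1 in place of 1, ATP2A3, a calcium pump gene described further on, was at least 2-fold lower. The median log2 change of the 74 was -0.05, with 32 above 0 and 42 below, beside a median of 0.01 over all 12158 genes, of which 6332 were above 0. Another 5 lay only in loci that name several genes and were not used, among them FKBP1A, the binding protein of the calcineurin inhibitor FK506.

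**Figure D4:**
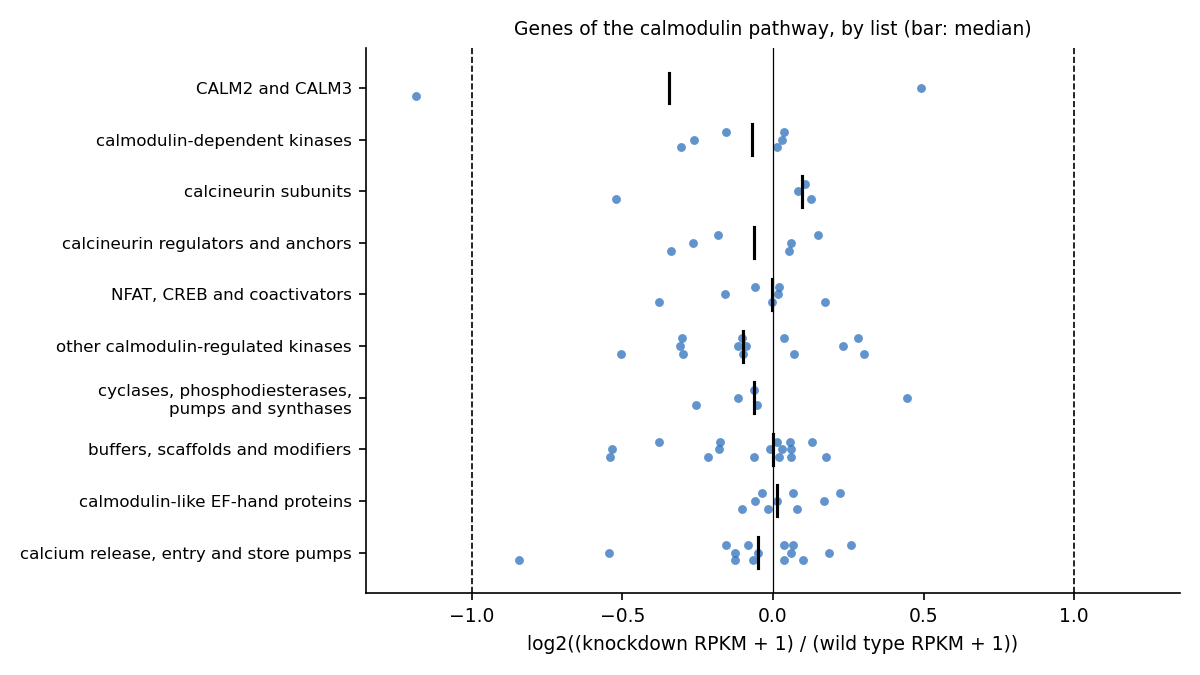
Log2 change (horizontal) of each measured gene of 10 functional lists (rows), with a bar at each list's median and dashed lines at 2-fold. The top row holds CALM2 and CALM3. CALM2, at -1.18, is the 1 point beyond a dashed line, and the other points run from -0.84 to 0.49.

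Of 11 listed CaM kinase genes, 6 were measured, 3 above 0 and 3 below, with a median log2 change of -0.07. The lowest were CAMKK1, a second kinase kinase gene, with 11.4 and 9.01 RPKM, and CAMK1D, which encodes a further CaMKI form and holds a microRNA, snoRNA or scaRNA gene, with 15.5 and 12.7 RPKM. The ratio of CAMKK2 to CAMKK1 was 1.45 and 1.87. CAMK4, CAMK2A, CAMK2B, CAMK1G and PNCK had no line among the values used here.

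The calcineurin subunits had a median of 0.09 over 4 measured genes, 3 above 0 and 1 below. Regulators and anchors of calcineurin had a median of -0.06 over 6, again 3 above 0 and 3 below. RCAN1, which inhibits calcineurin and is itself induced by NFAT, had 5.40 and 6.11 RPKM. The related inhibitor RCAN3 had 13.0 and 10.6 RPKM, and the anchoring protein gene AKAP5 had 1.26 and 0.792 RPKM. PPIA, which encodes cyclophilin A, the binding protein of cyclosporin, had 610 and 636 RPKM. NFAT genes, CREB1, its coactivators and TFEB had a median of -0.003 over 7 genes. NFATC1 had the lowest log2 change of these at -0.38, with 3.86 and 2.74 RPKM, and CRTC1, a CREB coactivator dephosphorylated by calcineurin, the highest at 0.17, with 4.45 and 5.14 RPKM.

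For other kinases, controlled by calmodulin or part of the AMP-activated kinase branch, the median was -0.10 over 13 genes, 5 above 0 and 8 below. PRKAA1, a catalytic subunit of AMP-activated kinase and a target of CaMKK2, had 27.0 and 18.7 RPKM, and its locus holds a microRNA, snoRNA or scaRNA gene. MYLK, the myosin light chain kinase, had 12.9 and 15.9 RPKM. PHKB, a subunit of phosphorylase kinase, an enzyme that carries calmodulin as a fixed subunit, had 21.5 and 26.7 RPKM. ITPKA, which phosphorylates inositol trisphosphate, had 1.61 and 1.10 RPKM.

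Cyclases, phosphodiesterases, calcium pumps and nitric oxide synthases had a median of -0.06 over 5 measured of 13 listed genes. PDE1C, a calmodulin-dependent phosphodiesterase, had the highest log2 change of all 74 at 0.44, with 1.90 and 2.94 RPKM, a level near the floor of the table. The plasma membrane pump gene ATP2B4, with a short RNA gene inside, had 7.32 and 5.96 RPKM. The adenylyl cyclase genes ADCY3 and ADCY1 had 32.0 and 30.8 RPKM and 1.60 and 1.40 RPKM.

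Calmodulin-binding buffers and scaffolds had a median of 0.001 over 16 genes, 8 above 0 and 8 below. CAMK2N1, an inhibitor protein of CaMKII, was lowest at -0.54, with 20.9 and 14.0 RPKM, and the scaffold IQGAP2 had 4.40 and 2.73 RPKM. CAMK2D stood at 0.887 times the RPKM of CAMK2N1 without the knockdown and at 1.33 times with it. CALD1, which encodes caldesmon, an actin-binding protein regulated by calmodulin, had 40.4 and 45.8 RPKM, and SPTAN1, for alpha spectrin, had 32.7 and 35.8 RPKM.

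Other EF-hand proteins had a median of 0.01 over 9 genes, and their log2 changes stayed between -0.10 and 0.22. The centrin gene CETN2 had 52.4 and 59.0 RPKM, CETN3 33.0 and 31.6 RPKM, SRI, for sorcin, 45.7 and 53.4 RPKM, and the myosin light chain gene MYL12A 181 and 168 RPKM. Genes of calcium release, entry and store pumping had a median of -0.05 over 15 genes, 7 above 0 and 8 below. ATP2A3, a pump of the endoplasmic reticulum, had the lowest log2 change of the 74 at -0.84, with 6.28 and 3.06 RPKM, so it missed 2-fold on the scale used. The related ATP2A1, summed over 2 lines, had 11.3 and 7.45 RPKM. ATP2C1, the pump of the Golgi apparatus, had 24.2 and 29.1 RPKM, and MICU2, a regulator of the mitochondrial calcium uniporter listed under its older name EFHA1, had 17.2 and 19.6 RPKM.

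The sites below are shown because CALM2 and PPP3R1 share a word in the 3′ untranslated region that the other genes of the set lack. The bases AATATGC had been picked in earlier work on these values as the word most in excess among lower genes, CALM2 included, so their presence in CALM2 supports nothing. The values of all other genes also entered that choice, so levels of genes with and without the word are not compared here. In the longest annotated 3′ untranslated region of each gene (GENCODE release 29), the word occurred 1 time in CALM2, at base 103 of 694, and 1 time in PPP3R1, at base 1062 of 2106. It occurred 0 times in CALM3 and the other 6 enzyme genes. Each site is given as 30 bases, 5′ to 3′, with the word in capitals.
CALM2: actgtcaaaaaAATATGCatgtatagtaat
PPP3R1: tggtgatatttAATATGCatgtatgtatct

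Counted from the first base of the word, 13 bases were the same in both sites. The log2 change was -1.18 for CALM2 and 0.13 for PPP3R1, and a part of the word in either was not tested. The word is present in the same region of 11.5% of the protein-coding genes that hold no such short RNA gene (1160 of 10083 with such a region). Of 2370 mature microRNAs in RefSeq (GRCh38.p14), 0 carry the exact complement of the word at bases 2 to 8, the seed.

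Promoters of 300 bases were found in RefSeq (GRCh38.p14) for 6 of the 9 genes, 7 promoters in all. CALM2, PPP3CA and PPP3CB had no entry. The 2 promoters of CALM3 are nearly the same stretch, chr19:46601819-46602118 and chr19:46601822-46602121. These and the promoters of CAMKK2 and PPP3R1 lie inside the GENCODE spans of their genes. For these 3 genes the sequence before the outermost annotated start was therefore not searched. Of the 7, 0 held the CArG box, the binding motif of serum response factor, and 0 held the cAMP response element TGACGTCA, both searched on both strands. Over all 35116 promoters of that length, 1.29% held the former and 1.85% the latter.

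Other annotated genes overlap most of the set, and the sources used here do not say whether the counting used strand. On the same strand, AC073283.3 covers nearly all of CALM2 and AC017083.3 covers PPP3R1, both annotated as protein-coding, and 2 microRNA genes lie inside PPP3CA. On the other strand, CALM3 overlaps PPP5D1, CAMK1 overlaps OGG1, and antisense or other noncoding genes overlap CALM3, CAMK2G, PPP3CA, PPP3CB and PPP3R1. CAMK2D and CAMKK2 overlapped no other gene. Reads of overlapping genes may be counted in the listed values, and their part in the results was not tested.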

How the data were processed

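Total RNA of both A549 samples was extracted with Trizol and made into libraries with an Illumina TruSeq RNA kit, per the labels' protocols. The authors deposited RPKM per locus. The tools named per the submitters' processing notes are Cufflinks 2.2.1 and TopHat2 2.0.10, and the builds are BDGP5, a fly genome, and GRCh38.p12, all without a stated role. The sources used here give neither annotation nor filters nor strand setting. The table held 14952 loci. No read counts came with it. In the 2212 loci with both values above 0 and below 2 RPKM, a window of 0.01 held no more than 29 of the log2 ratios, so no steps of single reads were found and the depth is unknown.

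Lines of 1 name were summed (102 names), the 1909 loci with no name were left out, and genes averaging 1 RPKM or more were kept. A pseudocount of 1 and a rule of 2-fold were used, with no test, since each group has 1 library. List genes were matched by symbol or by an older symbol that belongs to 1 gene; CHP1 was not matched in this way. Named genes are the 9 of the set, MYOCD, the 2 highest and 2 lowest of each list (some are left out of the text), and the neighbours of CALM2; further list members named beside them were chosen after their values were seen. Some items are not reported here. The genes of the set and the lists were chosen with earlier results of these data known. Gene positions and untranslated regions came from GENCODE release 29, gene types and promoters from RefSeq. Python 3.11.15, numpy 2.4.6, pandas 2.3.3 and matplotlib 3.10.9 were used, and the counting steps were tested on simulated data.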

Additional observations from a re-analysis of the deposited data

How the results depend on the processing

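CALM2 stayed at least 2-fold lower in 9 of 9 alternative settings, with log2 changes from -1.38 (equal summed RPKM over all loci) to -1.18 (pseudocount of 5). Only another pseudocount or scale could move it. The filters and the choice of lines leave the value of an abundant gene on 1 line unchanged. CALM3 ranged from 0.29 to 0.50 and the summed RPKM of CALM2 and CALM3 from -0.79 to -0.59, each with its sign kept. With equal summed RPKM over all loci, which moved the median of all genes from 0.01 to -0.17, CAMK1 stood at -0.14, CAMK2D at -0.17, CAMKK2 at -0.16, PPP3CA at -0.08, PPP3CB at -0.11 and PPP3R1 at -0.07. Of these sums, 42.3% (wild type) and 49.5% (knockdown) lay in loci with no name. The count of genes at least 2-fold lower was 88, and 189 with a pseudocount of 0.1, 53 with a pseudocount of 5, 140 with equal sums, and 38 when limited to protein-coding loci that hold no short RNA gene, where 11 were higher; this last setting was chosen after seeing the data. With a pseudocount of 0.1, 1 gene of the calcium release, entry and store pump list, ATP2A3, was at least 2-fold lower. No locus names CALM2 or CALM3 with another gene, so the alternative that adds such loci to the sum could not be run. No paired analysis was possible because each group has 1 library. Depth is unknown, so low values such as those of MYOCD, AKAP5 and PDE1C have no counting interval.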
